A study of Mus musculus with 10 samples.

Results

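The genes described here are 9 mouse genes of the NEDD4 ubiquitin system at membranes, out of 54838 genes listed for each library. They are the adaptors Ndfip1 and Ndfip2, the membrane-anchored RING ligases Rnf128 and Rnf13, and the HECT ligases Nedd4, Nedd4l, Itch, Wwp1 and Wwp2. The genes were chosen by what their proteins do, and the set was selected on the measured difference between the genotypes, because Ndfip2 and Rnf128 were among the clearest increases in these same libraries. For that reason the difference of the 9 genes between genotypes is described with its error, without a p-value. RNA was measured in crypts of the small intestine of 5 WT mice and 5 Arid3a conditional knockout (cKO) mice, 1 library per animal. All 10 animals were given tamoxifen on 3 consecutive days and were culled 1 month after the first injection. The cKO animals carried VillinCre-ERT2+/- and Arid3a fl/fl, so that tamoxifen deleted Arid3a in intestinal epithelial cells and not in the immune or stromal cells of the preparation. Which Cre or floxed alleles the WT animals carried, and the age of the animals, are not given in the sources used here.

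Ubiquitin ligases of the NEDD4 family are cytosolic enzymes with a catalytic HECT domain and WW domains that bind PY motifs. Many of their targets, such as channels, transporters and receptors, lack a PY motif, and the multi-pass membrane proteins NDFIP1 and NDFIP2 bridge this gap by recruiting and activating the ligases at endosomes and the Golgi. RNF128 (also called GRAIL) and RNF13 are ligases of another class, with a protease-associated domain in the lumen, 1 transmembrane helix and a cytosolic RING domain, and both act on endosomal membranes. In epithelia these enzymes are best known for setting how much of a transporter stays at the cell surface, and in T cells ITCH, NDFIP1 and RNF128 restrain activation.

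The libraries held 27050455 to 28152743 expected counts in WT and 28314069 to 31053622 in cKO crypts, and Arid3a itself was lower in cKO (log2 FC −1.84 ± 0.32, edgeR adjusted p = 0.00204). Log2 fold changes (log2 FC) are those of cKO over WT with the standard error (SE) of the fit, and adjusted p are from the quasi-likelihood test of edgeR, corrected by Benjamini and Hochberg over all tested genes. Markers of stem and transit-amplifying cells and of Paneth cells were abundant in every library, as is usual for crypts, at a summed 4516.5 to 8875.2 and 9063.7 to 21094.6 CPM over both genotypes. CPM are counts scaled to a common library size after TMM normalization. A summed list of 10 mature enterocyte markers was also present and differed widely, at 2259.1 to 9188.0 CPM in WT against 10562.8 to 19476.9 CPM in cKO, with all 10 genes past the threshold. WT animals 3 and 4 had the lowest enterocyte sums (3404.1 and 2259.1 CPM) and the highest stem and transit-amplifying sums (8875.2 and 8412.4 CPM). Values without these 2 libraries are therefore given for the 4 genes highest in cKO. They are also given where they change a call or a sign of the 9 genes or of pathway genes named by rule. For genes marked as named after their values were seen they are not given. Of the other marker sums, those of Paneth cells were lower in cKO (13370.1 to 21094.6 CPM in WT, 9063.7 to 12298.0 CPM in cKO, 4 of 6 genes past the threshold), as were those of B and plasma cells (108 to 183 CPM and 25.6 to 69.0 CPM, 2 of 6 genes, median log2 FC −1.93) and of endothelial cells (2.20 to 4.34 CPM and 0.959 to 2.16 CPM, 1 tested gene). The sums were higher in cKO for villus tip enterocytes (325 to 1383.0 CPM and 1474.9 to 4095.9 CPM), tuft cells (85.0 to 92.3 CPM and 95.4 to 109 CPM) and enteroendocrine cells (345 to 412 CPM and 462 to 682 CPM). None of these 6 sums overlapped between the genotypes, and their part in the values of the 9 genes was not tested. The villus tip sum was mostly Apoa4, which is also 1 of the 10 mature enterocyte markers. Apoa4 held 600 of a mean 809 CPM in WT and 2507.2 of 2909.8 CPM in cKO. Likewise the stem and transit-amplifying sum was mostly Olfm4, which held 5778.1 of a mean 7418.5 CPM in WT and 4076.9 of 5404.4 CPM in cKO. Of the 7 villus tip genes 4 were past the threshold, and Nt5e, Slc28a2 and Egfr were not. In bulk tissue, fewer cells of a type and less RNA per cell cannot be told apart. The animal identifiers form 2 series, 1 per genotype, so colony or litter cannot be told apart from genotype either.

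The stretches before the RefSeq start sites of Ndfip2, Rnf128 and Rnf13 are shown because these 3 genes, with Ndfip1, stood highest in cKO over WT. Each line gives the 250 bases before a RefSeq start (GRCm38.p6, plus strand, 5′ to 3′) with matches to GGGCGG (the GC box) and CCAAT, on either strand, in capitals. A GENCODE transcript of Ndfip2 starts at 105258573, so the end of its window, with nearly all of the GC box, lies in the first exon of that transcript, and the last 30 bases of the window are not printed. The Rnf128 window lies before the start of the transcript that begins at 139610620 and within the first intron of a longer-range transcript that begins at 139563316.
Ndfip2, chr14:105258373-105258592: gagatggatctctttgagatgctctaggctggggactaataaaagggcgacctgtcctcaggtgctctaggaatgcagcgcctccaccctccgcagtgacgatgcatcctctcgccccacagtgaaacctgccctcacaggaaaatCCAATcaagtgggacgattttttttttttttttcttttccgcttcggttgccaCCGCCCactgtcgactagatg
Rnf128, chrX:139610370-139610619: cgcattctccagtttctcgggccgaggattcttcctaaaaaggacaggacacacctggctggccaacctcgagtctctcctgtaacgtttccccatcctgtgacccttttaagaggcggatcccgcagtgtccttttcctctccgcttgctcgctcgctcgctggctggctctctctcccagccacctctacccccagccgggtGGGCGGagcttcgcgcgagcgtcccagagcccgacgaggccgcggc
Rnf13, chr3:57735807-57736056: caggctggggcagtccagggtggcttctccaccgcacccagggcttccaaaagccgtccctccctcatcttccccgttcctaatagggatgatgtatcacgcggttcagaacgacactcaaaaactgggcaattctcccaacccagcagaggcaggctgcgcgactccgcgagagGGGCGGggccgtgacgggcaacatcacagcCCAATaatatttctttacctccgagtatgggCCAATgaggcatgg
A GC box was present in all 3 windows of 250 bases, against 32.7% of the 32851 windows of this length in the table. It was also present in the Wwp2 window and in the Nedd4 window that begins at 72662081, and Wwp2 and Nedd4 were not past the threshold. The Nedd4 window that begins at 72693048 had a CCAAT match and no GC box. CCAAT was found once in the Ndfip2 window and at 2 places in the Rnf13 window (33.8% of all windows), and not in the Rnf128 window. The capitals do not overlap each other. TATAAA (12.4% of windows), CAAAGTCCA for HNF4 (0.384%), AGATAA for GATA factors (9.99%) and the AT-rich words ATTAAA (12.7%) and ATCAAA (10.6%), searched on both strands, were not matched in the 3 windows. Their GC content was 53.2% for Ndfip2, 63.2% for Rnf128 and 58.8% for Rnf13, where the median of all windows was 52.4%. For Wwp2 it was 62.8%, and for the Nedd4 windows 74.0% and 46.0%. A match to letters is a description of the sequence and not a measured binding site.

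All 9 genes were expressed well enough to be tested. Both adaptors and both RING ligases were higher in every cKO library than in any WT library, with fitted folds of 1.54 to 1.71, whereas the folds of the HECT ligases ranged from 0.815 to 1.21. Ndfip1, Ndfip2, Rnf128, Rnf13 and Itch were past the threshold over all genes, all higher. The other 4 genes were not. Of the 14719 genes tested, 28.3% were past it in either direction, 15.6% higher and 12.7% lower. The cKO libraries lay above the WT libraries without overlap in 6 of the 9 genes, the same 5 and Wwp2, where 12% of all tested genes did so. In 0 of the 9 genes were the cKO libraries below without overlap, beside 7.63% of all genes, or 19.6% in either direction. The median log2 FC was 0.65 for the adaptors, 0.72 for the RING ligases and 0.13 for the HECT ligases, beside −0.03 for all tested genes. The contrast that chose the set is the same one, so nothing is read from these counts.

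**Figure D1:**
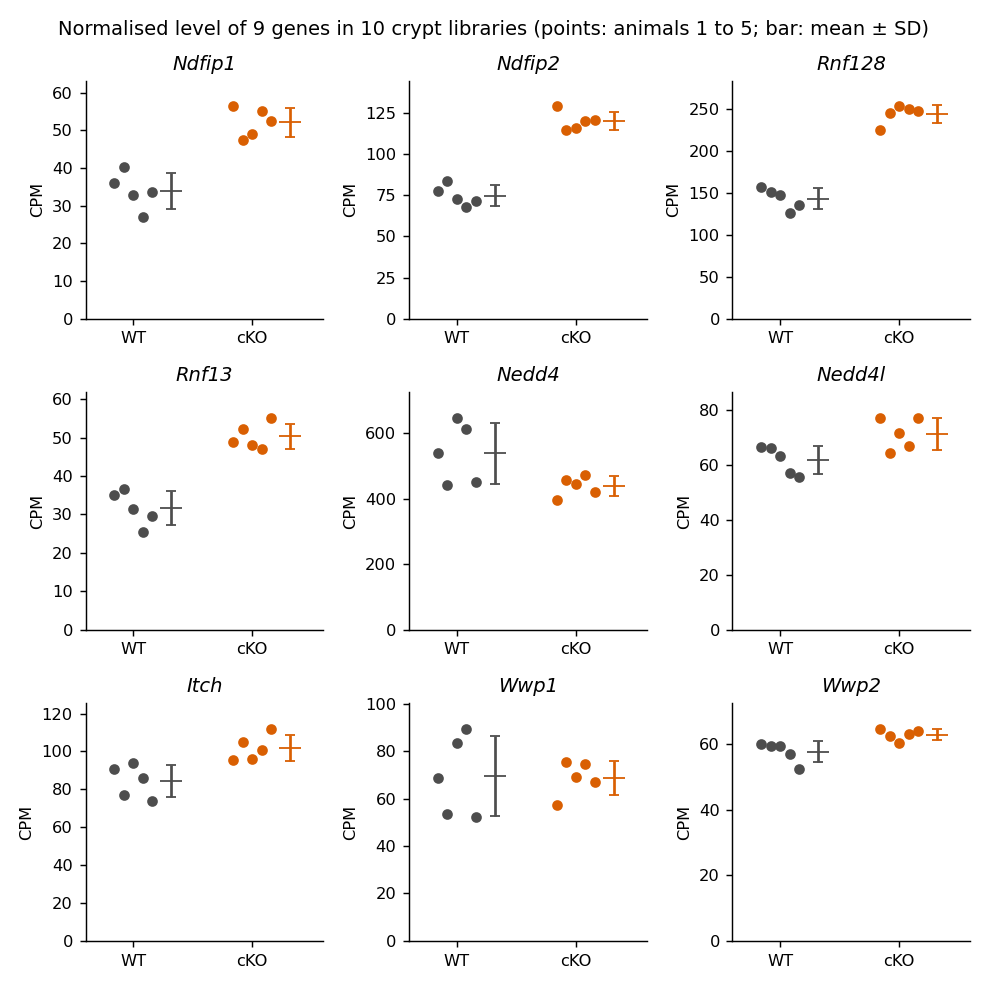
Normalised level (CPM, linear axis from 0) of the 9 genes in WT (grey) and Arid3a cKO (orange) crypts, 1 point per library in the order of animals 1 to 5, with the mean and SD of 5 animals beside them. The groups are separate in Ndfip1, Ndfip2, Rnf128, Rnf13, Itch and Wwp2 and overlap in Nedd4, Nedd4l and Wwp1.

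Ndfip2, an adaptor that binds NEDD4-family ligases through its PY motifs, lies on chromosome 14 of GRCm38 from 105258573 to 105309298 on the plus strand. It was measured at 77.9, 83.8, 72.8, 67.7 and 71.5 CPM in WT animals 1 to 5 and at 129, 115, 116, 120 and 121 CPM in cKO animals 1 to 5. The lowest cKO library was well above the highest WT library, and the spread between animals was small in both genotypes. Its level was 74.7 ± 6.25 CPM in WT against 120 ± 5.65 CPM in cKO (SD, n = 5 each), which gave a log2 FC of 0.69 ± 0.07 (SE). Ndfip1, its paralog, is known for limiting the iron transporter SLC11A2 and for holding T cells in check, and lies on chromosome 18 from 38410396 to 38465303 on the plus strand. Its WT values were 35.9, 40.3, 32.7, 27.1 and 33.6 CPM, and its cKO values were 56.3, 47.3, 49.1, 55.2 and 52.4 CPM. WT animal 2 was highest and WT animal 4 lowest among WT animals for both adaptors, and cKO animal 1 was highest and cKO animal 2 lowest among cKO animals. For Ndfip1 the log2 FC was 0.62 ± 0.10 (SE). The ratio of Ndfip2 to Ndfip1 counts was 2.22 ± 0.165 in WT and 2.32 ± 0.0968 in cKO (SD, n = 5 each), and its ranges of 2.08 to 2.50 and 2.17 to 2.43 overlapped.

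Rnf128, the RING ligase best known from anergic T cells, lies on the X chromosome from 139563316 to 139673145 on the plus strand and had the largest log2 FC of the 9 genes. It was counted at 157, 151, 147, 126 and 135 CPM in WT and at 225, 245, 253, 250 and 248 CPM in cKO. Among the cKO libraries, 4 were within 245 to 253 CPM and animal 1 was lower at 225 CPM, still above every WT library. The level was 143 ± 12.4 CPM in WT against 244 ± 11.3 CPM in cKO (SD, n = 5 each), which gave a log2 FC of 0.77 ± 0.07 (SE). Rnf13, an endosomal and lysosomal ligase, lies on chromosome 3 from 57736062 to 57835233 on the plus strand. It was found at 35.0, 36.5, 31.3, 25.4 and 29.6 CPM in WT and at 48.8, 52.3, 48.1, 47.1 and 55.2 CPM in cKO. WT animal 4 was again the lowest library, and the log2 FC was 0.67 ± 0.10 (SE). Among the 14719 tested genes, Rnf128 and Ndfip2 ranked 859 and 1004 by the size of the log2 FC, but 6 and 12 by the log2 FC over its standard error. Rnf13 and Ndfip1 ranked 1041 and 1170 by size and 164 and 290 over the error. These ranks describe the values by which the genes were chosen.

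Without WT animals 3 and 4 the log2 FCs were 0.51 for Ndfip1, 0.63 for Ndfip2, 0.73 for Rnf128 and 0.58 for Rnf13, and all 4 genes were past the threshold, as 14.2% of genes were in that fit. Ndfip1 and Rnf128 are also known from T cells. The summed level of 12 markers of T cells and intraepithelial lymphocytes overlapped between the genotypes, at 89.9 to 308 CPM in WT against 135 to 332 CPM in cKO. Of these 12 markers 1, Cd4, was past the threshold, and it was lower. The part of T cells in the values of the 9 genes was not tested. In WT crypts, animal 2 had the highest mature enterocyte sum (9188.0 CPM) and animal 4 the lowest (2259.1 CPM), the same animals that were highest and lowest for Ndfip1, Ndfip2 and Rnf13. Among cKO animals the order was different, since the enterocyte sum was highest in animal 5 (19476.9 CPM) and lowest in animal 3 (10562.8 CPM). The part of the mature enterocyte markers in the values of the 9 genes was not tested.

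Nedd4, the founding member of the NEDD4 family of HECT ligases, lies on chromosome 9 from 72662346 to 72749852 on the plus strand. Its WT libraries held 540, 441, 647, 612 and 451 CPM, and its cKO libraries 396, 458, 446, 473 and 419 CPM. WT animals 3 and 4 stood highest, whereas WT animals 2 and 5 lay within the range of the cKO animals. The level was 538 ± 92.8 CPM in WT against 439 ± 30.7 CPM in cKO (SD, n = 5 each), and the log2 FC of −0.30 ± 0.11 (SE) was not past the threshold. It was past the threshold, lower, with DESeq2, with library size only (−0.43), and without WT animal 2 (−0.36) or 5 (−0.33), and the log2 FC was −0.12 without WT animals 3 and 4. Wwp1, a close relative on chromosome 4 from 19608303 to 19708993 on the minus strand, had the same 2 WT animals on top. It was measured at 68.5, 53.5, 83.2, 89.4 and 52.4 CPM in WT and at 57.4, 75.2, 69.0, 74.6 and 67.1 CPM in cKO. All cKO libraries lay within the WT range, the log2 FC was −0.02 ± 0.15 (SE), and its sign turned to 0.24 without WT animals 3 and 4 and to 0.06, 0.09 and 0.04 without WT animal 3, WT animal 4 or cKO animal 1 alone.

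Itch, known for the degradation of JUNB in T cells, lies on chromosome 2 from 155133509 to 155226855 on the plus strand. Its levels were 90.8, 77.2, 94.1, 86.1 and 73.9 CPM in WT and 95.6, 105, 96.0, 101 and 112 CPM in cKO. The gap between the groups was narrow, between 94.1 and 95.6 CPM. The log2 FC of 0.27 ± 0.08 (SE) was past the threshold here but not with library size only (0.14), on log2 TPM (0.09 with a pseudocount of 0.5) or without cKO animal 5 (0.24). Wwp2, a ligase that acts with NDFIP1 on SLC11A2, lies on chromosome 8 from 107436365 to 107558595 on the plus strand. It was the steadiest of the 9 genes, at 59.9, 59.5, 59.5, 57.1 and 52.4 CPM in WT and 64.7, 62.4, 60.4, 63.1 and 63.9 CPM in cKO. These groups were separated by under 1 CPM, and the log2 FC of 0.13 ± 0.06 (SE) became −0.01 with library size only, a scaling that moved the median of all genes from −0.03 to −0.16. Nedd4l (also called NEDD4-2), the ligase of the epithelial sodium channel, lies on chromosome 18 from 64887705 to 65217828 on the plus strand. It was at 66.4, 66.0, 63.1, 57.1 and 55.5 CPM in WT and at 77.1, 64.3, 71.5, 66.7 and 76.9 CPM in cKO. In 4 of the 5 cKO libraries it was above every WT library, and the log2 FC was 0.21 ± 0.08 (SE). It was past the threshold with DESeq2 (0.22) and without WT animal 1 or 2 (0.24 each).

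**Figure D2:**
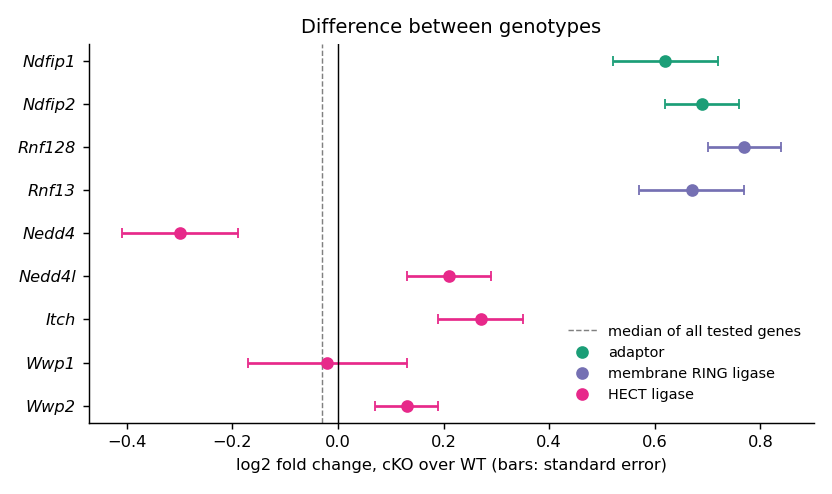
Log2 fold change of cKO over WT crypts for the 9 genes (points), with the standard error of edgeR's fit (bars), coloured by role. The adaptors and RING ligases lie between 0.62 and 0.77, and the HECT ligases between −0.30 and 0.27, around the median of all tested genes at −0.03 (dashed line).

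To compare levels between the genes, the deposited TPM were used, which are scaled by transcript length. In WT crypts Nedd4 had the highest TPM, at 132 ± 29.4, followed by Rnf128 at 77.1 ± 4.98, Ndfip1 at 52.5 ± 6.50 and Ndfip2 at 51.4 ± 4.35 (SD, n = 5 each). Nedd4l, Itch, Rnf13 and Wwp2 formed a group between 22.4 and 26.5 TPM whose neighbouring ranges overlapped, and Wwp1 was lowest at 15.3 ± 4.89 TPM. In cKO crypts Rnf128 came first at 115 ± 6.58 TPM and Nedd4 second at 99.2 ± 9.41 TPM, ahead of Ndfip2 at 75.9 ± 5.15 TPM and Ndfip1 at 75.7 ± 8.09 TPM (SD, n = 5 each). Nedd4 was above Rnf128 in 5 of 5 WT libraries, and Rnf128 was above Nedd4 in 5 of 5 cKO libraries, although the TPM ranges of the 2 genes in cKO (110 to 126 and 90.2 to 114) overlapped. By these TPM the 2 adaptors could not be put in order in either genotype. This, and the place of Ndfip1 in the order, rest on a length of 930 bases for Ndfip1, against 1392 bases in GENCODE M21. Rnf13 moved from the seventh place in WT, at 23.1 ± 2.98 TPM, to the fifth in cKO, at 33.2 ± 2.67 TPM (SD, n = 5 each), and there its range no longer overlapped with that of Nedd4l.

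**Figure D3:**
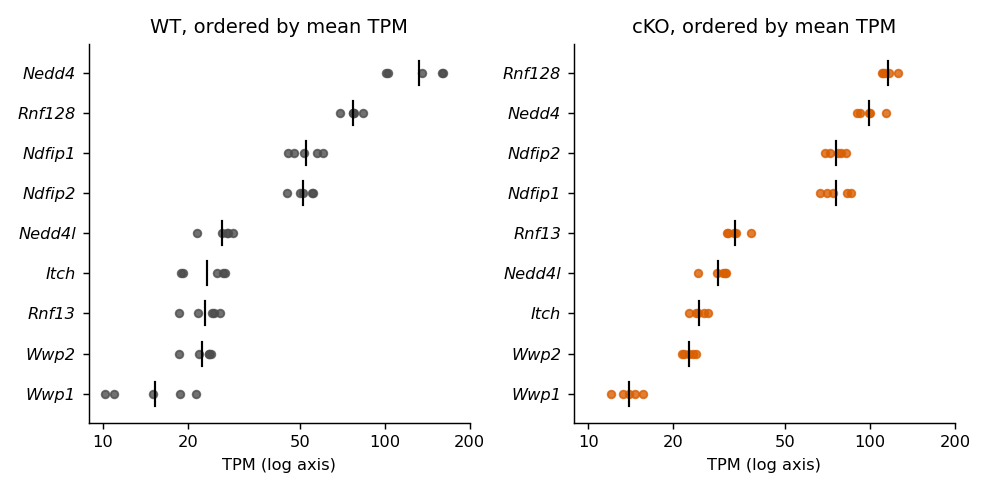
TPM of the 9 genes (log axis) in the 5 WT (left) and the 5 cKO libraries (right), ordered by the mean of the genotype (black line). Nedd4 leads in WT at a mean of 132 TPM and Rnf128 in cKO at 115 TPM.

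Set against the ligases they serve, the adaptors took a larger part of the TPM in cKO. Ndfip1 and Ndfip2 together amounted to 0.488 ± 0.110 of the summed TPM of the 5 HECT ligases in WT and to 0.801 ± 0.0669 in cKO (SD, n = 5 each). The ratio was 0.365 to 0.636 in WT and 0.732 to 0.906 in cKO, without overlap. It was chosen after the values were seen and rests on the same contrast as the choice of genes. Nedd4 made up 59.8 ± 2.18% of the HECT ligase TPM in WT and 52.2 ± 2.48% in cKO (SD, n = 5 each), with ranges of 56.8 to 62.2% and 49.6 to 54.9%. These are ratios of transcripts and not of proteins. The TPM of Ndfip1 also depend on its only listed transcript, which has a length of 930 bases in the files and of 1392 bases in GENCODE M21.

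The files give for each library the average length of a gene's transcripts, weighted by their estimated abundance. For Rnf128 this length was 2598.2, 2530.2, 2576.2, 2358.2 and 2387.1 bases in WT animals 1 to 5 and 2599.8, 2665.6, 2673.9, 2649.0 and 2676.4 bases in cKO animals 1 to 5. All cKO values lay above all WT values, but by only a small step between WT animal 1 and cKO animal 1, while WT animals 4 and 5 stood apart on the low side. In GENCODE M21 the gene has protein-coding transcripts of 2750 and 2641 bases and a processed transcript of 821 bases without a coding sequence. If the files used these lengths, the transcript of 821 bases made up at least 2.35% (WT animal 1) to 15.5% (WT animal 4) of Rnf128 transcripts in WT libraries. The corresponding upper limits in cKO libraries were 3.81% (animal 5) to 7.79% (animal 1). The limits for WT animals 1 (2.35 to 7.87%) and 3 (3.56 to 9.01%) overlapped those of every cKO library. Those for WT animal 2 (6.09 to 11.4%) overlapped those of cKO animal 1 (2.26 to 7.79%). Only WT animals 4 and 5, at 15.5 to 20.3% and 13.9 to 18.8%, lay above all cKO libraries. TPM divide by length and also lack the TMM scaling of the counts. The log2 FC of Rnf128 was 0.58 on log2 TPM with a pseudocount of 0.5, against 0.77 on counts and 0.64 on counts with library size only. For Ndfip1 the log2 FC on log2 TPM was 0.53, against 0.62 on counts. The parts of length and scaling in these differences were not tested. Average lengths of the other genes overlapped between the genotypes, and that of Ndfip1 was the same in all 10 libraries. These shares are model estimates from short reads. Of the 34210 genes with a single transcript found in both annotations, 98.8% had the same length to within 0.5 bases, and Ndfip1 was among the exceptions.

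Within a genotype the 9 genes did not vary as one block. After each genotype's mean was subtracted, Nedd4 and Wwp1 had a Pearson correlation of log2 CPM of 0.97 over the 10 libraries, and each was the sixth closest of 11389 genes to the other. The adaptors formed the second pair, with a correlation of 0.93, and Rnf128 and Rnf13 the third, with 0.78. Ndfip2 and Nedd4 ran in opposite directions, with a correlation of −0.61. The points share library and depth, and 10 libraries leave such values imprecise, so they are descriptions only. Nedd4 and Wwp1 were high in WT animals 3 and 4 and low in WT animals 2 and 5, as was the summed level of the stem and transit-amplifying markers, at 8875.2 and 8412.4 CPM in the first pair and 5810.4 and 6652.6 CPM in the second. Most of that summed level was Olfm4. Of these 9 stem and transit-amplifying markers, 5 (Mcm5, Ascl2, Olfm4, Pcna and Smoc2) were past the threshold lower in cKO, and their part in the values of Nedd4 and Wwp1 was not tested. The coefficient of variation of CPM was smaller in cKO than in WT for each of the 9 genes, for example for Wwp1 (24.3% in WT, 10.5% in cKO), Nedd4 (17.2% and 7.01%) and Nedd4l (8.18% and 8.13%). Across 6553 genes of 25 to 1000 CPM its median was likewise lower in cKO, at 6.60% against 10.9%.

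**Figure D4:**
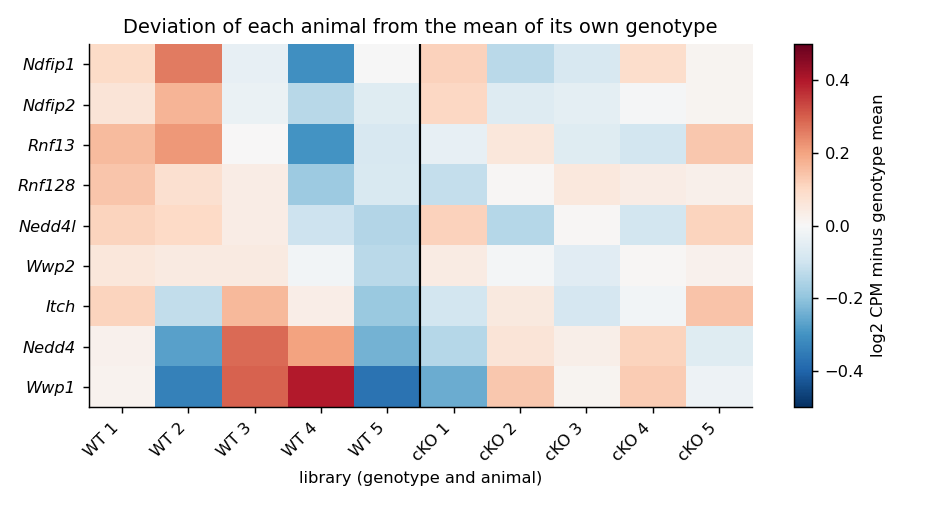
Deviation of log2 CPM from the mean of the animal's own genotype, for the 9 genes (rows) in 10 libraries (columns), from low (blue) to high (red). Nedd4 and Wwp1 are high in WT animals 3 and 4 and low in WT animals 2 and 5, whereas the adaptors and Rnf13 are highest in WT animal 2 and lowest in WT animal 4.

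By the same measure the 2 genes most like Ndfip2 were Mical1, an actin-oxidizing enzyme (correlation 0.979), and Aldh1l1, an enzyme of folate metabolism (0.974). The nearest to Rnf128 were Ift46 of intraflagellar transport (0.944), Pxmp4 of the peroxisomal membrane (0.937) and Akr1c14, an aldo-keto reductase (0.931). Aldh1l1, for example, was at 47.5 ± 11.2 CPM in WT against 76.6 ± 8.13 CPM in cKO (SD, n = 5 each), a log2 FC of 0.69. For Ift46 the log2 FC was 0.27 and for Akr1c14 0.99. Ndfip1 was at place 56 among the genes closest to Ndfip2, and Rnf13 at place 88 for Rnf128. In the other direction, Ndfip2 was at place 106 for Ndfip1 and Rnf128 at place 409 for Rnf13.

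The other genes of the pathway were taken from 7 lists with 116 genes, of which 103 were tested. Of these, 27 were higher and 7 lower in cKO at an adjusted p of 0.05 over all genes, so that 33.0% differed, with a median log2 FC of 0.05. That share is close to the 28.3% of all genes. By direction, 15.6% of all genes were higher and 12.7% lower, the shares to set beside the counts of each list below. The split depended on the scaling, with 16 higher and 19 lower with library size only and 13 higher and 11 lower with limma on log2 TPM, which moved the median of all genes to −0.16 and −0.12. The 2 tested relatives among the HECT ligases, Smurf1 and Smurf2, which act on TGF-β and BMP signalling, did not pass the threshold. Smurf1 was at 24.6 ± 3.29 CPM in WT against 23.4 ± 0.855 CPM in cKO, and Smurf2 at 63.1 ± 5.35 and 70.6 ± 2.17 CPM (SD, n = 5 each). Their log2 FCs were −0.07 and 0.16, with edgeR adjusted p = 0.582 and 0.0892. Hecw1 and Hecw2 were nearly silent and were not tested.

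Of 24 other adaptors and regulators of NEDD4 ligases, 5 rose, 5 fell and 14 did not pass the threshold, with a median log2 FC of 0.06. The largest increases were in the kinases Sgk1 and Sgk2, of which SGK1 is known to phosphorylate NEDD4L and so to loosen its hold on its targets. Sgk1 was at 13.2, 17.9, 8.79, 5.66 and 13.9 CPM in WT and at 43.0, 46.0, 40.4, 85.3 and 84.4 CPM in cKO. Every cKO library lay above every WT library, with WT animal 4 lowest and cKO animals 4 and 5 highest. The log2 FC was 2.33 ± 0.35 (SE; edgeR adjusted p = 0.00226), and it was 2.0 without WT animals 3 and 4. Sgk2 rose from 1.24 ± 0.544 to 6.21 ± 2.51 CPM (SD, n = 5 each), which gave a log2 FC of 2.32 (edgeR adjusted p = 0.00114), but 1.52 with limma on log2(TPM + 0.5) and 1.21 on log2(TPM + 1). Among the genes that fell, Arrb2, a β-arrestin that links receptors to NEDD4, went from 12.3 ± 0.958 to 7.96 ± 0.731 CPM (SD, n = 5 each) without overlap, which gave a log2 FC of −0.63 (edgeR adjusted p = 0.00117). N4bp3, a NEDD4-binding protein, fell by 0.70 on the log2 scale, from 11.7 ± 2.41 to 7.22 ± 0.825 CPM (SD, n = 5 each), with edgeR adjusted p = 0.00505. The other calls were Arrdc3 and the WW-binding genes Wbp2 and Wbp1, which rose by 0.60, 0.44 and 0.22 on the log2 scale, and Arrdc4, Pmepa1 and Arrdc1, which fell by 0.52, 0.27 and 0.23. These 6 genes were named after their values were seen. Arrdc1, Arrdc3 and Arrdc4 encode α-arrestins, which bring NEDD4 ligases to membrane cargo.

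Other membrane-anchored ligases were compared with Rnf128 and Rnf13. Of 7 tested genes with the same domain order as Rnf128, 1 rose and 6 did not pass the threshold, with a median log2 FC of −0.15. Rnf167, a lysosomal and endosomal ligase, rose from 39.3 ± 5.50 to 60.4 ± 12.8 CPM (SD, n = 5 each), which gave a log2 FC of 0.62 (edgeR adjusted p = 0.00894, and 0.0575 without WT animals 3 and 4). Rnf43 and Znrf3, which remove WNT receptors from the surface of stem cells, were at 86.6 ± 19.0 and 25.3 ± 5.38 CPM in WT and at 78.2 ± 10.4 and 21.0 ± 2.68 CPM in cKO (SD, n = 5 each). Neither passed the threshold, with log2 FCs of −0.15 and −0.27 and edgeR adjusted p = 0.454 and 0.166. Without WT animals 3 and 4 the value for Rnf43 was 0.08. Znrf3 passed it without WT animal 2 (−0.37, edgeR adjusted p = 0.0411). Of 8 tested MARCH ligases, another family of membrane RING enzymes, 4 rose and 4 did not pass the threshold, with a median log2 FC of 0.39. March8, which removes the transferrin receptor and MHC class II from the surface, was at 64.6 ± 6.41 CPM in WT against 94.5 ± 4.53 CPM in cKO (SD, n = 5 each), without overlap, with edgeR adjusted p = 8e-04. March6, a ligase of the endoplasmic reticulum, rose from 121 ± 15.5 to 177 ± 10.8 CPM (SD, n = 5 each; edgeR adjusted p = 0.00149). March5, at the mitochondrial membrane, and March7 rose by 0.35 and 0.43 on the log2 scale, with edgeR adjusted p = 0.00558 and 0.0318. March7 lost its call without WT animal 1 or 4 (0.44 each) or cKO animal 2, 3 or 5 (0.39, 0.44 and 0.40). It also lost it with library size only (0.29), with the replicate number as a block (0.45) and on log2 TPM (0.41 with a pseudocount of 0.5). March5, March6 and March8 kept theirs in every alternative.

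Among 30 tested genes listed as transport and signalling substrates, 11 rose and 19 did not pass the threshold, with a median log2 FC of 0.01. Whether these ligases act on their proteins in crypts was not tested. The largest increases in the list were in the transporters Slc6a19, Slc5a1 and Slc9a3. Of other transport genes in the list, Slc11a2 and Clcn5 rose by 0.66 and 0.43 on the log2 scale. Kcnq1, Slc38a2, Slc1a1 and Cftr did not pass the threshold, with log2 FCs of −0.21, −0.16, −0.08 and 0.13. Clcn5, Kcnq1, Slc38a2, Slc1a1 and Cftr were named after their values were seen. Slc6a19, the main transporter of neutral amino acids, went from 48.9 ± 31.1 to 177 ± 60.4 CPM, Slc5a1, the sodium-glucose transporter, from 548 ± 264 to 1596.2 ± 325 CPM, and Slc9a3, the sodium-proton exchanger, from 27.6 ± 14.0 to 72.1 ± 21.4 CPM (SD, n = 5 each). Their log2 FCs were 1.86, 1.54 and 1.39, with edgeR adjusted p = 0.0167, 0.0079 and 0.0228. Without WT animals 3 and 4 the edgeR adjusted p was 0.0511 for Slc6a19 (log2 FC 1.43) and 0.0528 for Slc9a3 (1.05). Slc9a3 also lost its call without WT animal 3 or 5 (1.33 and 1.35) or cKO animal 1 or 5 (1.23 and 1.31). Slc5a1 is also 1 of the 10 mature enterocyte markers, and the part of these cells in the values of the transporters was not tested. Erbb3, a receptor kinase of the EGF receptor family, rose from 174 ± 34.5 to 279 ± 37.1 CPM (SD, n = 5 each; log2 FC 0.68, edgeR adjusted p = 0.00444).

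The best known target of NDFIP1 with WWP2, the iron transporter Slc11a2 (DMT1), was at 45.8, 49.1, 43.8, 45.7 and 42.9 CPM in WT and at 98.4, 65.0, 84.2, 57.5 and 53.0 CPM in cKO. Every cKO library was above every WT library, and the cKO animals spread widely. The log2 FC was 0.66 ± 0.15 (SE; edgeR adjusted p = 0.00897). The call was lost without WT animals 3 and 4 (0.64, edgeR adjusted p = 0.0629) and on log2 TPM (0.37 with a pseudocount of 0.5, limma adjusted p = 0.106). Of the 3 subunits of the epithelial sodium channel, the classical target of NEDD4L, Scnn1a was at 12.3 ± 1.40 CPM in WT against 11.6 ± 0.534 CPM in cKO (SD, n = 5 each; log2 FC −0.08, edgeR adjusted p = 0.552). Scnn1b had 0 to 3 counts in WT libraries and 0 in cKO libraries, and Scnn1g had 0 to 9 and 0, too few for a test.

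Of 17 genes for ubiquitin, its activating and conjugating enzymes and the deubiquitinases of these ligases, Ube2d3 and Usp2 rose, Usp10 and Otub2 fell, and 13 did not pass the threshold. Otub2, named after its values were seen, was low, at 1.04 ± 0.341 CPM in WT against 0.573 ± 0.102 CPM in cKO (SD, n = 5 each). Ube2d3, a conjugating enzyme for many RING and HECT ligases, was at 263 ± 9.70 CPM in WT against 314 ± 28.1 CPM in cKO (SD, n = 5 each), which gave a log2 FC of 0.25 (edgeR adjusted p = 0.019), but the value was −0.08 on log2 TPM with a pseudocount of 0.5, and the call was lost without cKO animal 2 (0.21) and without WT animals 3 and 4 (0.26, edgeR adjusted p = 0.0694). The deubiquitinases Usp2 and Usp10 changed by 0.44 and −0.23 on the log2 scale, with edgeR adjusted p = 0.0341 and 0.0191, which were 0.174 and 0.0913 without WT animals 3 and 4. Usp2 also lost its call when WT animal 3, WT animal 4 or any 1 cKO animal was left out (0.41 to 0.45). Of 15 ESCRT genes, whose products sort ubiquitinated membrane proteins into multivesicular bodies, 4 rose and 11 did not pass the threshold, with a median log2 FC of 0.16. These were Vps37a, Vps4b, Tsg101 and Stam2, with log2 FCs of 0.33, 0.29, 0.25 and 0.24 and edgeR adjusted p = 0.00905, 0.00665, 0.0368 and 0.0272. All 4 calls were lost with library size only (0.20, 0.16, 0.12 and 0.11) and on log2 TPM. Without a single animal, the call of Tsg101 was lost for WT animals 1, 3 and 4 and cKO animals 2 to 5 (0.21 to 0.26) and for WT animals 3 and 4 together (0.15, edgeR adjusted p = 0.211), and that of Stam2 for WT animal 4 and cKO animals 1, 3 and 5 (0.22 to 0.25).

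**Figure D5:**
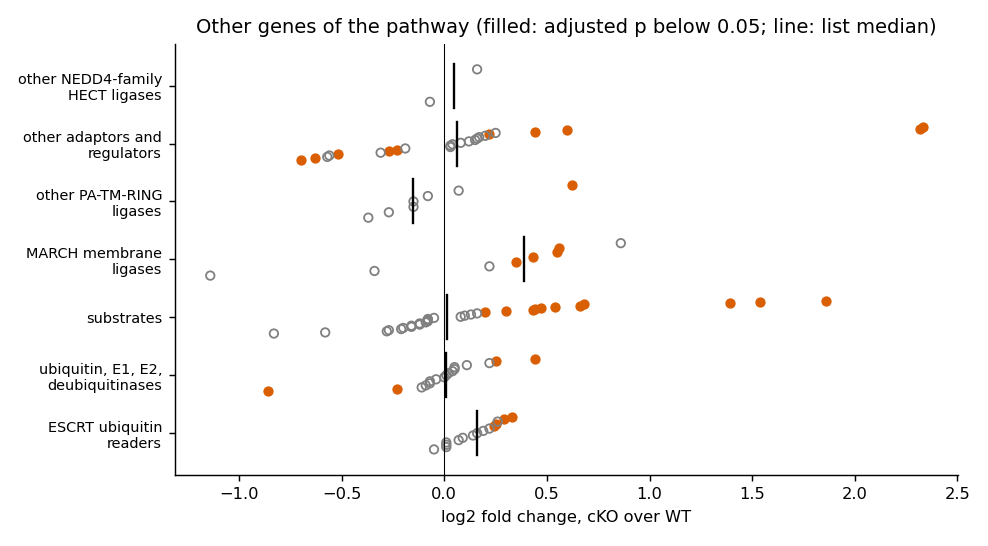
Log2 fold change of cKO over WT crypts for the 103 tested genes of the 7 lists, 1 point per gene, spread vertically by rank within a list. Filled orange points passed an adjusted p of 0.05 over all genes, open grey points did not, and the black line is the median of the list, from −0.15 for the relatives of Rnf128 to 0.39 for the MARCH ligases.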

How the data were processed

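Polyadenylated RNA was sequenced from crypts of 5 WT and 5 Arid3a cKO mice, as the sample labels group them, 1 library per animal. In the pipeline nf-core/rnaseq 3.0 the authors mapped reads by STAR and quantified genes with RSEM against Ensembl release 95 of GRCm38, and deposited for each gene an expected count and TPM, without filter or normalization between libraries. The strand setting is not given in the sources used here, so antisense partners can share counts. The antisense or overlapping genes found for Ndfip2, Rnf13, Nedd4l, Wwp1 and Wwp2 held at most 16.4 counts in any library. The deposited FPKM were not used.

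Gene symbols and positions were taken from GENCODE M21 (GRCm38) by gene identifier, which gave a symbol to 54723 of 54838 genes. The 115 genes without one took 0.019% of counts. Where 1 symbol had 2 identifiers (Hgs), the one with more counts was used. Expected counts were rounded, genes with enough counts were kept by filterByExpr (minimum count 10), and genotype was tested in edgeR 4.0.16 (TMM, robust quasi-likelihood test, Benjamini-Hochberg adjustment over 14719 genes, threshold 0.05). CPM are on TMM-scaled library sizes (factors of 1 to 1.08 in WT and 0.934 to 0.986 in cKO). The study's model also held time, at 1 level in these animals. Totals of 27050455 to 31053622 counts make counting error small for the 9 genes, each with at least 757 counts per library. Reads carry no molecular identifiers.

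The 9 genes and the lists were chosen with earlier results of these data known, and the ratio of adaptor to HECT ligase TPM and the fits without WT animals 3 and 4 were added after seeing the values. The genes named were the 9 genes, the genes past the threshold in each list averaging 50 or more normalized counts (at most the 4 with the largest change), a few fixed genes (Sgk1, Scnn1a, Scnn1b, Scnn1g, Slc11a2, Smurf1, Smurf2, Rnf43, Znrf3), and the 3 genes most like Ndfip2 and Rnf128 by the correlation of log2(CPM + 0.5) after subtraction of each genotype's mean. Exceptions are marked, and 1 gene that meets the rule is not reported here. Of the 14 lists of cell type markers, 10 of 10 mature enterocyte and 4 of 7 villus tip genes were past the threshold higher, as were 2 of 5 tuft and 2 of 5 enteroendocrine genes. Past it lower were 5 of 9 stem and transit-amplifying, 4 of 6 Paneth, 2 of 6 B and plasma cell, 1 of 12 T cell, 1 of 4 smooth muscle genes and 1 of 1 endothelial gene. None of the 6 goblet, 6 myeloid, 5 fibroblast genes and the 1 gene of neurons and glia that were tested passed it.

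Promoter windows were taken from RefSeq (GRCm38.p6), where 5 of the 9 genes had an entry. Alternatives were DESeq2 1.42.0, limma-voom and limma 3.58.1 on log2(TPM + 0.5) and log2(TPM + 1), scaling by RLE or by library size only, testing without a filter or with a minimum of 10 counts in each library, the replicate number as a block and leaving out each animal. The fit was tested on simulated counts.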

Additional observations from a re-analysis of the deposited data

Results flagged for a closer look

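Single animals stood apart from the other 4 of their group, by Dixon's criterion at the 95% level, in 3 of 106 groups checked, where chance gives about 1 in 20. Rnf128 was lowest in cKO animal 1, at 225 CPM, with the next cKO animal at 245 CPM. The same animal had the shortest average Rnf128 transcript of the cKO libraries, at 2599.8 bases. Sgk2 was highest in cKO animal 4, at 10.6 CPM, with the next at 5.68 CPM. Usp10 was lowest in cKO animal 4, at 122 CPM, with the next at 135 CPM.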

How the results depend on the processing

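Ndfip1, Ndfip2, Rnf128 and Rnf13 were past the threshold, higher, in each of the 20 alternatives, with log2 fold changes from 0.49 (Ndfip1) to 0.81 (Rnf128). Over these alternatives 4 to 7 of the 9 genes were past it. Leaving out each animal in turn gave 3007 to 4684 genes over the whole table, 4 to 7 of the 9 genes, 26 to 43 of the other pathway genes, and 7 to 9 genes in their place in the order of TPM in either genotype. Without WT animals 3 and 4 together, 2143 genes (4167 with all animals) and 19 pathway genes (34) were past the threshold, in a fit with fewer samples. Of the genes past the threshold, 55.1% were higher in the reported fit, 27.7% with library size only and 33.8% with limma on log2 TPM. Ube2d3 reversed to −0.08 with limma on log2(TPM + 0.5) and on log2(TPM + 1), and the cause was not tested. For the 26 single genes outside the set that are named, 452 values under an alternative kept direction and side of the threshold, 65 lost the threshold, 1 gained it and 2 reversed. In the set, Itch lost the threshold in 5 of the 20 alternatives (library size only, the replicate block, both fits on log2 TPM, and without cKO animal 5), Nedd4 passed it in 4 and Nedd4l in 3, and Wwp1 and Wwp2 passed it in none. Wwp1, at −0.02, was between −0.15 and 0.24 over these alternatives.

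Samples with the same replicate number did not deviate together (correlations of −0.16, −0.04, 0.13, −0.14 and −0.15), and no cKO sample correlated best with its own number. With the replicate number as a block, 3052 genes, 4 of the 9 genes (all but Itch of the 5) and 25 pathway genes were past the threshold.

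Depth does not limit the 9 genes, but the summed markers of mature and villus tip enterocytes, Paneth, tuft, enteroendocrine, B and plasma and endothelial cells, and the 2 series of animal identifiers, run with genotype. Proteins, and the cells that hold these transcripts, were not measured.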
